A study of Homo sapiens with 2 samples.

Results

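The broad peaks of a NeuroD1 ChIP-seq map of IMR-32 cells are described here. A broad peak was defined as an interval of 450 bp or more in the deposited peak list, outside 5 stretches of chromosome 2 that were left out. There were 331 broad peaks among the 6183 peaks of the list. The 5 stretches held 112 peaks, so the 331 made up 5.45% (exact 95% interval 4.89 to 6.05%) of the 6071 peaks outside them. The other 5740 peaks are called narrower peaks. Width alone chose the members, and width, reads and fold enrichment all rest on the same ChIP pileup, so these values are given as a description with no test.

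IMR-32 is an established neuroblastoma line with amplified MYCN, labelled as wild type. ChIP-seq pulls down DNA bound by a protein with an antibody and calls peaks where sequenced fragments pile up above the local background. The series holds 1 ChIP library made with a NeuroD1 antibody and 1 input library of chromatin taken without the antibody step, which was not analysed here. The labels name NeuroD1, whereas the supplementary ChIP-seq methods of the study name an antibody to H3K27Ac, a histone mark of active promoters and enhancers. Elsewhere the study describes its ChIP-seq of IMR-32 cells as that of NeuroD1, and its H3K27Ac data as made by a separate assay, CUT&Tag. The list was read as labelled, and which antibody gave it was not tested. With 1 ChIP library no test across replicates was possible, peaks are not replicates, the total depth of the library is unknown, and the intervals below cover counting error only.

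NeuroD1 is a proneural transcription factor of the basic helix-loop-helix family. Such factors bind DNA as dimers with E-proteins, of which TCF3 is a member, and the dimer recognises the E-box, a short sequence with the letters CANNTG. NeuroD1 is known for driving the differentiation of neurons and of endocrine cells. The CCAAT box is another short promoter sequence, recognised by the NF-Y factor.

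Where the promoter sequence at the summit of a broad peak could be read, the 5 strongest summits had no E-box around them. Most broad summits that were read lacked one, so this does not set the 5 strongest apart. Among the 84 broad summits with 101 complete bases around them, 13 had an E-box (15.5%). The sequence of EPS15 is shorter and is not among the 84. The build hg38 is named in the submitters' processing notes, and GRCh38.p14 is a patch release of it. The following sequences surround the summits of broad peaks that are upstream of a start site in the RefSeq promoter sequences of GRCh38.p14. They were chosen to show the 5 strongest of the 101 broad summits that lay in such a sequence and, below them, examples with a CCAAT box or an E-box. Each is written 5′ to 3′ on the strand of its gene with the summit at base 51, except that of EPS15, where the summit is base 38. Capitals mark a match on either strand to CANNTG, to CCAAT or to CGGATC, a run of letters that was picked only after these sequences had been read. The SMARCD2 sequence is chr17:63842711-63842811 on the minus strand, EPS15 is chr1:51519429-51519516 on the minus strand, ZNF609 is chr15:64460438-64460538 on the plus strand, PGK1 is chrX:78104097-78104197 on the plus strand, and USP3 is chr15:63504477-63504577 on the plus strand.
SMARCD2: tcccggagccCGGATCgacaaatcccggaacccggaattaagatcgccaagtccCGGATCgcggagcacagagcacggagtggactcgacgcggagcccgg
EPS15: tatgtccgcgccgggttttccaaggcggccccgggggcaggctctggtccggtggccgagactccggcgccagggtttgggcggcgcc
ZNF609: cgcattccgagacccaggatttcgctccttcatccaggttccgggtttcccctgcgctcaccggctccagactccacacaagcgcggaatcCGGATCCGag
PGK1: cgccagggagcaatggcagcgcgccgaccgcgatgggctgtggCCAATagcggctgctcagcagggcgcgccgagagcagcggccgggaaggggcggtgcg
USP3: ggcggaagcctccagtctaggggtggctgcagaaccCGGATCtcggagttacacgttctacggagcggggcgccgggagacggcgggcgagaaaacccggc

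The further sequences with a CCAAT box or an E-box come from TOMM40 at chr19:44891127-44891227 on the plus strand, SP2 at chr17:47896069-47896169 on the plus strand, PDK2 at chr17:50095190-50095290 on the plus strand and HSPA9 at chr5:138575404-138575504 on the minus strand. TOMM40 encodes the channel of the mitochondrial import machinery, SP2 a zinc-finger transcription factor, PDK2 a kinase of pyruvate dehydrogenase and HSPA9 the mitochondrial HSP70 chaperone.
TOMM40: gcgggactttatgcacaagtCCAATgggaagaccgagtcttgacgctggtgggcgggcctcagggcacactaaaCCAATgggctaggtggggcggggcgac
SP2: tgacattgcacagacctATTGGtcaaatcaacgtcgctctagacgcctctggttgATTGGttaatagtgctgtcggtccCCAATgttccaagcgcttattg
PDK2: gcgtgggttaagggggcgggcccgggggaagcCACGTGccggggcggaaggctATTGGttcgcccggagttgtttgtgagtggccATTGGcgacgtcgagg
HSPA9: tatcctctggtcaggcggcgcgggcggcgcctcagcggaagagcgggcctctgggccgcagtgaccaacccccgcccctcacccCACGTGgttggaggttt

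The sequences of SMARCD2, EPS15, ZNF609 and USP3 hold no CANNTG and no CCAAT, and that of PGK1 holds a CCAAT box. Beyond the printed bases, the full promoter sequence of USP3 held 1 E-box, and those of SMARCD2, EPS15, ZNF609 and PGK1 held none. The strong peaks at DNAH2, LOC107987043 and KDSR-DT, described below, have summits outside the promoter sequences, which were not read. In PDK2 and HSPA9 the E-box is of the CACGTG form, and SP2 holds 3 CCAAT boxes. Over all broad peaks, 101 summits lay in a 300-base promoter sequence, which runs from 250 bases before to 50 after a start. Of these 101 sequences, 56 held an E-box (55.4%, exact 95% interval 45.2 to 65.3%), beside 58.7% of the 1810 such sequences at narrower peaks and 68.7% of all 35116 promoter sequences. The interval of the broad peaks lay below the share of all promoters and held that of the narrower peaks. That is a description and not a test, and the GC content of these sequences, given below, also differed.

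Closer to the summit the share fell below that of the narrower peaks. The 101 bases centred on the summit were complete for 84 broad and 1548 narrower peaks. An E-box lay in 13 of the 84 (15.5%, 8.51 to 25%), in 27.8% (25.6 to 30.1%) of the narrower peaks, and in 33.1% of the middle 101 bases of all promoter sequences. The form CAGATG, commonly bound by factors of this family, was at 0 of 84 broad summits (exact 95% interval up to 4.30%), and so were the form CAGCTG and the form CATATG. In the same order, the narrower summits had 4.52%, 8.40% and 0.646%, and the middles of all promoters had 4.95%, 6.03% and 1.02%. CAGGTG was at 4.76% of broad summits, 4.46% of narrower summits and 7.73% of the middles of all promoters. CACGTG was at 2.38%, 3.81% and 2.70%. All of these forms are cases of CANNTG and are counted in its share.

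The CCAAT box was more frequent than the E-box at the 84 broad summits that were read, and also at the narrower summits that were read. Summits outside the promoter sequences were not read. It lay within 50 bp of 41 of 84 broad summits (48.8%, 37.7 to 60.0%), of 38.4% (35.9 to 40.8%) of narrower summits, and in 18.3% of the middles of all promoters. Per kilobase of sequence read, in 50-base steps from 100 bases upstream to 100 downstream, broad summits had 7.30, 6.05, 9.74 and 6.49 CCAAT matches, and narrower summits 3.57, 4.90, 5.56 and 3.56. The E-box matches in the same steps were 3.41, 2.71, 1.62 and 3.03 at broad and 3.26, 3.56, 3.42 and 2.69 at narrower summits. Among these steps the broad values for the E-box were lower in those on either side of the summit, and rest on 8 to 14 matches a step. From 100 to 150 bases downstream the broad value was also lower, at 2.23 beside 2.47. From 150 to 100 bases upstream it was higher, at 3.23 beside 3.09. The letters GGGCGG, a GC box, lay at 48.8% of broad, 53.1% of narrower and 26.6% of all promoters in the same windows. The promoter sequences at broad peaks had a median GC content of 66.7%, those at narrower peaks 68.3% and all promoters 58.7%. The GC content of a promoter changes how often such letters occur, and its part in these shares was not tested. A match describes the letters only, and the absence of one says nothing of whether the factor was there.

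The 13 broad summits with an E-box had a median fold enrichment of 9.48 (quartiles 8.58 and 9.78), and the 71 without had 11.6 (9.47 and 16.6). The highest values were 13.9 at PDK2 and 70.0 at SMARCD2. As the groups differ in size, these maxima are not compared. With and without a CCAAT box the medians were 11.1 and 11.1. In narrower peaks the medians with and without an E-box were 7.18 and 7.17. The letters CGGATC lay at 6 of the 84 broad summits (7.14%, 2.67 to 14.9%), at 2.97% (2.18 to 3.94%) of narrower summits and in 1.79% of the middles of all promoters. Those 6 broad peaks had a median fold of 30.4, and the 46 narrower peaks with the letters had 7.24 beside 7.17 without them. As the letters were picked from the strongest peaks, these values have no test.

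Broad peaks had higher fold enrichment and more reads than narrower ones. Fold enrichment divides the summit pileup of the ChIP library by a local background after adding 1 to each. Whether that background came from the input library is not given in the sources used here. In broad peaks the fold had a median of 10.1 (interval of the median 9.70 to 11.1) and quartiles of 8.01 and 14.1. The narrower peaks had a median of 6.77 with quartiles of 5.79 and 8.53. The ranges overlapped widely, from 3.78 to 70.0 in broad and from 3.08 to 45.8 in narrower peaks. The median −log10 q was 18.5 in broad and 7.26 in narrower peaks. Of the 10 peaks with the highest fold outside the 5 stretches 9 were broad, and of the top 100 there were 38.

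A broad summit was covered by a median of 28 ChIP reads (26 to 29, range 12 to 229), and a narrower one by 16. The reads were solved from the deposited fold and p-value, as were the local backgrounds, whose median was 1.53 (1.42 to 1.75) at broad and 1.24 at narrower peaks. The background was at least 2 at 42.6% of broad and 27.2% of narrower peaks. The share of peaks that were broad rose with the reads at the summit. It was 0.369% of peaks with 8 to 12 reads, 1.12% with 13 to 16, 4.25% with 17 to 20, 10.1% with 21 to 30 and 20.1% with 31 to 50. Of the 95 peaks with more than 50 reads, 50 were broad (52.6%, 42.1 to 63.0%).

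**Figure D1:**
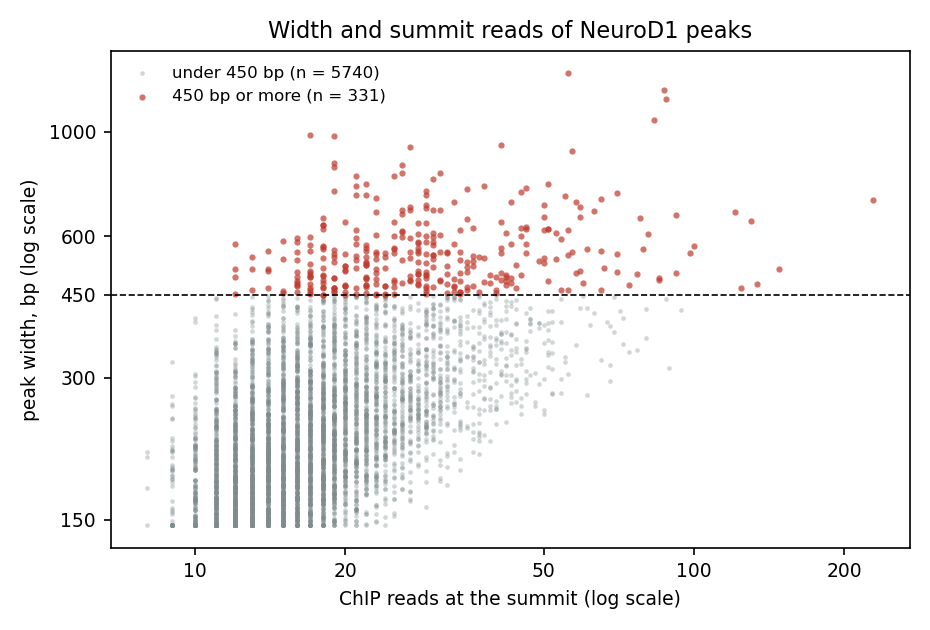
Peak width in bp against the ChIP reads at the summit, both on log scales, with each point 1 peak and broad and narrower peaks in different colours. Broad summits had 12 to 229 reads with a median of 28, and narrower summits had a median of 16.

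**Figure D2:**
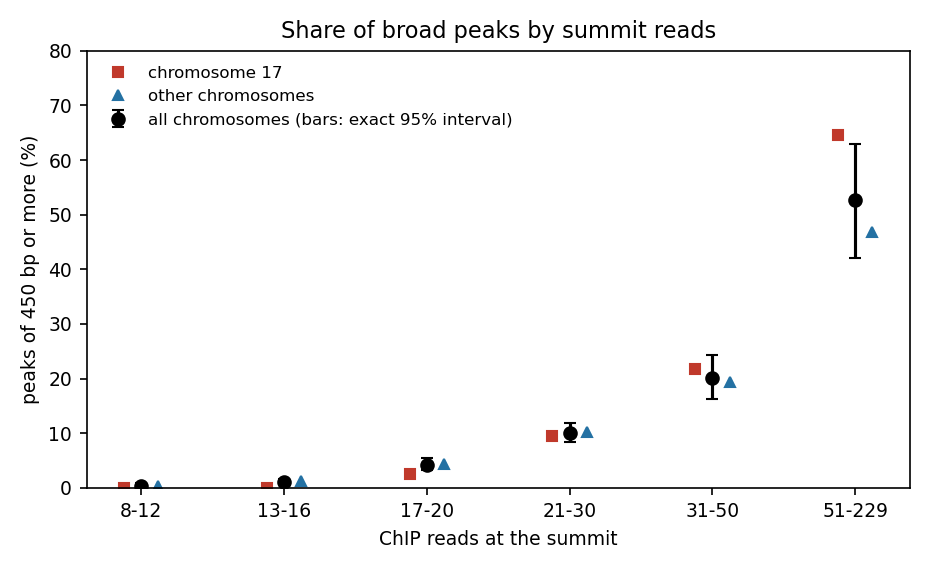
Share of peaks that were 450 bp or more wide, in %, by classes of ChIP reads at the summit, for chromosome 17 and for the other chromosomes. The share went from 0.369% of all peaks with 8 to 12 reads to 52.6% of those with more than 50, and in the latter class was 64.5% on chromosome 17 and 46.9% elsewhere.

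Width and strength moved together over the whole list and much less within the broad peaks. The rank correlation of width with reads was 0.558 over 6071 peaks and 0.213 over the 331 broad ones. With fold it was 0.499 and 0.186. All points share 1 library and depth, and the correlation over the broad peaks is over a range restricted by the rule. The median broad peak was 533 bp wide, the quartiles were 481.5 and 603 bp, and the widest was 1329 bp. There were 121 broad peaks under 500 bp, 124 from 500 to 599 bp, 49 from 600 to 699 bp and 37 of 700 bp or more, of which 4 were over 1000 bp. Median fold in these classes was 9.16, 10.1, 12 and 11.6.

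The 5 peaks of exactly 450 bp lay at CBFA2T2, a corepressor of the ETO family (9.70-fold), between BICRAL and TBCC (7.85-fold), 8005 bp from CLEC6A, a C-type lectin receptor (9.16-fold), and nearest to the loci LOC105374320 (9.16-fold) and LOC124904204 (8.17-fold). Those of 449 bp included peaks at EZR, the membrane linker ezrin (14.1-fold), TSKU (11.6-fold), RENO1 (11-fold), COQ8A (6.21-fold) and SPTLC2 (5.10-fold).

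The peak with the highest fold outside the 5 stretches was broad and lay at SMARCD2, a subunit of the BAF chromatin remodelling complex. It spanned chr17:63842503-63843216, was 714 bp wide and reached 70.0-fold with 229 reads (200 to 261). Its summit lay 76 bp upstream of the SMARCD2 start, in the sequence printed above. The next was at DNAH2, an axonemal dynein heavy chain, at chr17:7717018-7717664, with 61.3-fold, 130 reads (109 to 154) and a summit 474 bp upstream of the start. These 2 peaks are both on chromosome 17.

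The peak shared by OSBPL9 and EPS15, an adaptor of clathrin-mediated endocytosis, lay at chr1:51519250-51519761 and reached 54.8-fold with 148 reads. The peak of LOC105370861 and ZNF609, a zinc-finger gene, lay at chr15:64460219-64460693 and reached 50.5-fold with 134 reads. At USP3, a deubiquitinase of histone H2A, the peak at chr15:63504289-63504754 reached 40.6-fold with 124 reads (103 to 148) and its summit was 66 bp upstream of the start. These 3 were among the narrower of the broad peaks, at 512, 475 and 466 bp, with summits 213, 90 and 66 bp upstream of starts.

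PGK1, a glycolytic kinase gene, held the 1 broad peak of chromosome X, at chrX:78103741-78104405, with 44.8-fold, 92 reads and a summit 101 bp upstream of the start. The peak at ADGRL1, an adhesion receptor of the latrophilin family, lay at chr19:14206677-14207849, 773 bp from the gene body, with 42.9-fold and 88 reads. A peak at chr17:30707912-30709136 lay 720 bp from SUZ12P1, a pseudogene of the Polycomb gene SUZ12, with 42.4-fold and 87 reads. The peaks at SUZ12P1 and ADGRL1 were also the next widest after that at EEF1A1, at 1225 and 1173 bp. The 10 broad peaks with the highest fold were completed by LOC107987043 at chr9:2241818-2242318 with 42.9-fold and KDSR-DT, the divergent transcript of a sphingolipid gene, at chr18:63367254-63367860 with 39.5-fold.

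The 5 broad peaks with the lowest fold all had a background above the median of broad peaks. At MTNAP1, of the mitochondrial nucleoid, 26 reads gave 3.78-fold over a background of 6.0, and at MIR2117HG 30 reads gave 4.34-fold over 6.0. PHOX2A, a homeobox factor of noradrenergic neurons, had 16 reads (9.15 to 26.0) over a background of 3.0 and a fold of 4.17. SORCS2, a receptor of the sortilin family, had 17 reads and 4.42-fold, and LOC105372639 had 12 reads and 4.25-fold. For single peaks, intervals were made for the reads only, so the uncertainty of the background and of the fold is not shown.

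The widest peak lay at EEF1A1, which encodes the elongation factor that brings tRNAs to the ribosome. It ran over 1329 bp at chr6:73520098-73521426 with 24.2-fold and 56 reads (42.3 to 72.7), and its summit lay 185 bp upstream of the start. After SUZ12P1 and ADGRL1 came the 1059 bp peak at chr17:48003046-48004104, 7647 bp from LOC124904017, with 20.6-fold and 83 reads. The other 6 of the 10 widest lay within 1 kb of a start. They were at SYNCRIP, an RNA-binding protein (982 bp, 8.04-fold), SKIL, a repressor of SMAD signalling (977 bp, 9.64-fold), MPP2, a scaffold of the MAGUK family (936 bp, 11.4-fold), MFSD11 (927 bp, 8.23-fold), NFATC4, a calcineurin-dependent transcription factor (911 bp, 27.9-fold), and ZFAND3 (859 bp, 7.93-fold). The 10 widest peaks thus ran from 7.93 to 42.9-fold, with as few as 17 reads at SYNCRIP and 19 at SKIL and at ZFAND3.

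The share of summits near a transcription start was higher in broad than in narrower peaks. The start table held no sequence for chromosome 8, which had 10 broad peaks, so shares of starts are over 321 broad and 5562 narrower peaks. A summit lay within 1 kb of a listed start in 175 of 321 broad peaks (54.5%, 48.9 to 60.1%) and in 41.9% (40.6 to 43.2%) of narrower peaks. With starts of protein-coding genes alone the shares were 50.8% and 38.9%. Starts on both strands within 500 bp of the summit were found for 12.8% (9.32 to 16.9%) of broad and 9.49% (8.74 to 10.3%) of narrower peaks. The peak interval itself held a start in 43.3% of broad and 24.9% of narrower peaks, a measure that grows with width.

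The difference in the share near a start was not alike at every read number. Among peaks with 21 to 30 reads, 55.4% (45.7 to 64.8%) of 112 broad and 36.5% (33.5 to 39.5%) of 1026 narrower summits were near a start. With 13 to 16 reads the shares were 78.9% (54.4 to 93.9%) of 19 broad and 43.1% of narrower summits, and with 17 to 20 reads 50.9% and 39.3%. With 31 to 50 reads the shares were 48.8% and 43.9%, and with more than 50 reads 57.1% and 56.8%. By width, the share was 40.5% under 300 bp, 47.8% from 300 to 449 bp, 48.7% from 450 to 499 bp, 50.4% from 500 to 599 bp, 70.8% from 600 to 699 bp and 64.9% from 700 bp. The last 2 classes rest on 48 and 37 peaks.

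Fewer broad summits lay within genes. Of the 331, 159 (48.0%, 42.5 to 53.6%) were in the body of an annotated gene, beside 56.0% (54.7 to 57.3%) of narrower peaks. A further 118 (35.6%) were outside genes but within 3 kb of one, beside 27.8%. The share over 3 kb from any gene was 16.3% (54 peaks, 12.5 to 20.7%) for broad and 16.2% for narrower peaks. When each peak was counted once, 175 were near a listed start, 27 within 1 kb of the end of a gene with no listed start, 60 elsewhere in a gene body, 15 beside a gene and 54 far from genes. The gene-body class made up 18.1% of broad and 31.7% of narrower peaks. Median fold in the 5 classes was 10.1, 10.4, 9.73, 11.9 and 11.7, so broad peaks far from genes were not weaker than those at starts by this measure.

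**Figure D3:**
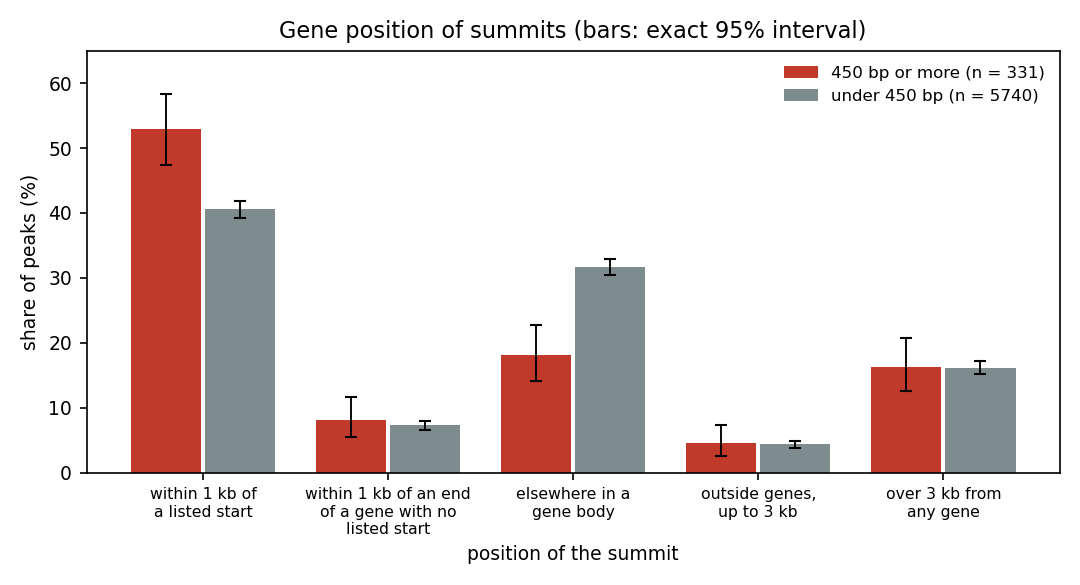
Share of broad and of narrower peaks, in %, by the position of the summit relative to genes, with exact 95% intervals as bars. Of 331 broad peaks, 52.9% had a summit within 1 kb of a listed start, beside 40.6% of 5740 narrower peaks. Peaks of chromosome 8, which had no listed start, are counted in these totals. The shares over 3 kb from any gene were 16.3% and 16.2%.

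By the gene assigned, 230 broad peaks (69.5%) were at protein-coding genes, 77 (23.3%) at lncRNA genes, 19 at pseudogenes and 2 at miRNA genes. The rule assigned 320 different genes, since 10 genes had more than 1 broad peak. LOC101927436 was assigned 3 as the nearest gene, and they lay 891, 46602 and 65294 bp from its body. Those with 2 included FOXK2, a forkhead factor, KPNB1, a nuclear import receptor, and IGFBPL1, an insulin-like growth factor binding protein family member. For 117 broad peaks the same gene also had a narrower peak. A neighbouring peak was within 1 kb of 13.6% (10.1 to 17.8%) of broad and 9.08% (8.35 to 9.85%) of narrower peaks, and the median gap to the next peak was 34674 and 61108 bp. Among broad peaks far from genes the highest fold was 28.8, at chr15:78681590-78682153, 10742 bp from LOC105370913, and TLE3, a Groucho corepressor, had a 709 bp peak with 19.3-fold 13579 bp from its body. Inside gene bodies away from starts the highest was 30.6-fold at RERG, a RAS-like growth inhibitor, followed among named genes by SYN3, a synapsin, with 18.2-fold. RERG, TLE3 and SYN3 were picked after their values were seen.

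The summit of a broad peak often stood off the middle. Counted from the lower coordinate, the median summit lay at 53.4% (49.1 to 57.3%) of the width in broad and 48.4% in narrower peaks, so neither class leaned to 1 side by much. The outer 25% of the interval on either side held 91 of 331 broad summits (27.5%, 22.8 to 32.6%) and 11.3% (10.5 to 12.2%) of narrower ones. In base pairs the median distance from the middle was 96.5 in broad and 21 in narrower peaks. The shorter side of the summit measured 174 bp at the median and the longer side 358 bp, beside 84 and 128 bp. These distances in bp follow in part from the rule, as a wider interval leaves more bases around its summit. The smallest longer side of a broad peak was 229 bp, so the distances are given as a description.

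The distance from the middle grew with width. Summits in the outer 25% on either side made up 19.8% of peaks of 450 to 499 bp, 28.2% of 500 to 599 bp, 28.6% of 600 to 699 bp and 48.6% of 700 bp or more. Across the 331 peaks the rank correlation of width with the distance from the middle in bp was 0.366, a relation in which both measures share the interval. This share was lower in classes with more reads. In broad peaks it was 31% with 17 to 20 reads, 26.5% with 21 to 30, 22.5% with 31 to 50 and 12% with more than 50. In narrower peaks it was 7.5% with 17 to 20 reads, 3.54% with 21 to 30 and 1.26% with 31 to 50.

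**Figure D4:**
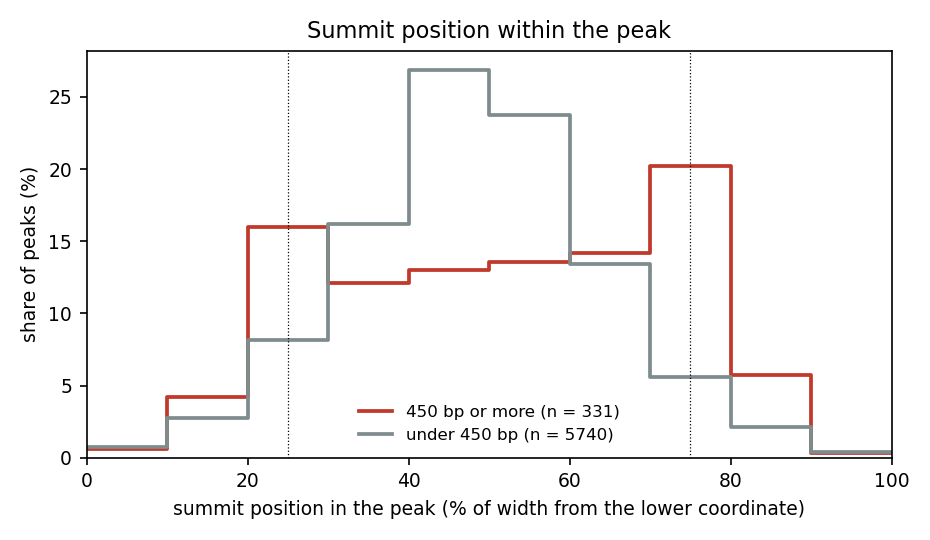
Distribution of the summit position within the peak, as % of the width from the lower coordinate, for broad and narrower peaks, with the share of peaks in % on the vertical axis. Narrower summits gather around the middle, with 11.3% in the outer 25% on either side, and broad summits spread further, with 27.5% there.

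The most off-centre broad summits were at RN7SL475P, a pseudogene of the 7SL RNA, at 7.71% of the width, SYNCRIP at 9.11%, LOC105372639 at 90.0%, SLBP, which binds the stem-loop of histone mRNAs, at 88.4%, and TROAP-AS1 at 88.3%. These 5 had from 12 to 23 reads and from 4.25 to 10.4-fold, which is at or below the middle of the broad peaks except for the fold at TROAP-AS1.

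Relative to the direction of the gene, the 175 broad summits near a start had a median position of -109 bp, with negative values upstream of the start (quartiles -213.5 and 1 bp), and the 2328 narrower ones -69 bp (-134 and -7 bp). Upstream of the start were 74.9% of broad and 76.8% of narrower summits. Within the 250 bp before the start were 53.7% (46.0 to 61.3%) of broad and 67.1% (65.2 to 69.0%) of narrower ones. The broad peaks reached a median of 310 bp (275 to 335) from the summit in the upstream direction and 235 bp (216 to 267) downstream. In narrower peaks the sides were 113 and 110 bp. The longer side pointed downstream in 39.4% (32.1 to 47.1%) of broad and 49.1% (47.1 to 51.2%) of narrower peaks. The direction was taken from the nearest listed start alone. Of all peaks outside chromosome 8, 10.3% of broad and 2.80% of narrower intervals held starts of both strands. There, upstream of 1 start is downstream of another.

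In the 9 gene lists taken for this tissue and factor, 139 of 363 genes had any peak outside the 5 stretches and 20 had a broad one. Over all 20056 protein-coding genes, 3587 had any peak and 248 a broad one. These counts are given without a test. Of 18 proneural helix-loop-helix and E-protein genes 9 had a peak and 2 a broad one. TCF3, the E-protein gene itself, had a 564 bp peak of 12.5-fold with 25 reads (16.2 to 36.9) and a summit 518 bp upstream of its start. ATOH8, a relative of the atonal factors, had a 527 bp peak of 15.0-fold with 50 reads (37.1 to 65.9) in its gene body, 18448 bp past the start. Of 24 adrenergic core circuit genes 11 had a peak, and PHOX2A, described above, had the 1 broad peak.

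Of 47 neuronal differentiation genes 21 had a peak and 4 a broad one. SRRM4, a splicing factor of neural exons, had 12.3-fold with 39 reads 27351 bp into the gene. CBFA2T2 had 9.70-fold with 20 reads 6253 bp past its start. RBFOX3, the splicing factor known as NeuN, had 8.63-fold with 43 reads over a background of 4.0, and the summit lay 5719 bp from the gene body. NRXN2, a presynaptic adhesion molecule, had 7.03-fold with 14 reads, 89 bp from the gene body, and the start table lists no start for it.

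Of 68 deubiquitinase genes 20 had a peak and 2 a broad one, USP3 and USP1. USP1 removes ubiquitin from FANCD2 and PCNA and is a main subject of the study. Its peak at chr1:62436405-62437042 was 638 bp wide, with 9.81-fold and 29 reads (19.4 to 41.6), both close to the medians of broad peaks, over a background of 2.0. The summit lay at 30.3% of the width, 203 bp downstream of the nearer of its 2 listed starts. Before the other start, the 250 bases of promoter sequence, 244 of them inside the peak, held 1 E-box of the form CAGCTG, whereas the 250 bases before the nearer start held none and were outside the peak. The summit itself was in neither promoter sequence, so no sequence is shown for it.

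Of 31 BAF genes 16 had a peak and 3 a broad one. Beside SMARCD2 these were BICRAL, of the non-canonical BAF complex, with 7.85-fold and 23 reads 165 bp upstream of the start of its neighbour TBCC, and ARID1B, with 7.11-fold and 28 reads 69 bp upstream of its start, in LOC115308161. Of 49 histone modifier genes 20 had a peak and HDAC5, a class II histone deacetylase, the 1 broad one, with 6.86-fold and 41 reads over a background of 5.0.

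Of 41 splicing and RNA-binding genes 16 had a peak and 3 a broad one. RBM39 had 14.0-fold with 28 reads, HNRNPL 9.62-fold with 26 reads 47 bp upstream of a start, and PTBP1, the repressor of neural exons, 8.17-fold with 24 reads 146 bp upstream. Of 40 ubiquitin ligase genes 13 had a peak and 2 a broad one, at CUL2, a cullin scaffold, with 11.1-fold, 22 reads and a summit 38 bp upstream, and at RNF44 with 6.54-fold and 19 reads. Of 45 cell cycle genes 13 had a peak and 2 a broad one. CDC25C, a phosphatase of mitotic entry, shared a 734 bp peak of 5.40-fold with FAM53C, and MCM4, a subunit of the replicative helicase, had 5.23-fold with 15 reads. In all lists together 20 of 139 genes with a peak had a broad one (14.4%, 9.02 to 21.3%), beside 248 of 3587 protein-coding genes with a peak (6.91%, 6.11 to 7.79%). Counted by peaks, 20 of 214 were broad (9.35%, 5.80 to 14.1%), beside 5.49% of 4410 at protein-coding genes. The median fold of all peaks at the listed genes was 7.13, and at protein-coding genes 6.87. The lists were drawn up with results for genes such as SMARCD2 and USP3 known, so the higher share is not read as a property of them, and with so few in each list no list is set apart from another.

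Chromosome 17 held 68 of the 331 broad peaks. They were 11.6% (9.16 to 14.5%) of its 584 peaks, beside 4.79% of the 5487 peaks elsewhere. Its mean local background was 2.50 and the median reads of all its peaks were 22, the highest of the 23 chromosomes in both. The next shares were 8.51% on chromosome 21, which rests on 4 of 47 peaks, 7.91% on chromosome 15 and 6.59% on chromosome 19, and the lowest were 1.92% on chromosome 13 and 2.31% on chromosome 5. Within classes of summit reads the share on chromosome 17 and on the rest was 2.5% and 4.42% at 17 to 20 reads, 9.55% and 10.2% at 21 to 30, 21.7% and 19.3% at 31 to 50, and 64.5% and 46.9% above 50, where it had 31 peaks. In the 5 stretches of chromosome 2 that were left out, 35 of 112 peaks (31.2%) were 450 bp or wider. The part of the local background in these shares was not tested.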

How the data were processed

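The peak list of 1 NeuroD1 ChIP library was used. The submitters' processing notes name BWA 0.7.17, MACS2 2.2.7 and hg38, whereas the deposited peak names carry macs3, so the version of the caller is uncertain. The authors deposited, for each peak, the fold enrichment at the summit (a ratio), the −log10 p-value and −log10 q-value, and a score made from the −log10 q. A last score deposited by the authors equals the fold divided by the width in all 6183 rows. Peaks were called on 1 library, not on pooled samples, and the control and q threshold are not given in the sources used here.

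The number of reads and the background under every summit were solved from the fold and −log10 p by the Poisson formula of MACS. The weight of 1 read, 0.980, and the lowest background, 1.04, were read from the even steps of the fold values in 2028 peaks. The solved values gave back the deposited −log10 p within 0.00212%. The solver was run on 1000 peaks simulated by the same formula with a read weight of 0.9, and recovered the reads in 100%. That check covers only the inversion of the formula, not whether the formula holds for the deposited list. Total depth is unknown. Intervals are exact 95% Clopper-Pearson for shares, Poisson for reads and rank-based for medians.

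Genes came from RefSeq GRCh38.p14 (59792 genes), and start sites from 35116 promoter sequences of 27305 genes, which cover 15843 of 20056 coding genes and none on chromosome 8. A gene was the one whose body holds the summit, or else the nearest. No genome was used, so motifs were searched on both strands in promoter sequences only. Named genes are those at the 10 widest, 10 strongest, 5 weakest and 5 most off-centre broad peaks, those just inside and outside 450 bp, and the list members with a broad peak. TOMM40, SP2, PDK2, HSPA9 and the genes with more than 1 broad peak were picked after their values were seen. A gene just outside 450 bp is not reported here. The members and lists were chosen with earlier results of these data known. The software was scipy 1.17.1, numpy 2.4.6 and pandas 2.3.3 under Python 3.11.15, with matplotlib 3.10.9 for figures.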

Additional observations from a re-analysis of the deposited data

How the results depend on the processing

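Of 53 alternatives over 8 results, 45 stayed within the interval of the reported value or, for the number of peaks, within 1.5 times of it, and 8 did not. The number of broad peaks was 539 at a limit of 400 bp and 210 at 500 bp. The median reads were 25 without chromosome 17, an alternative chosen after seeing the data. The share of summits in a gene body was 38.4% with protein-coding genes only and 73.4% when any overlap of the peak interval counted, and of summits over 3 kb from any gene 24.8% when coding genes alone were used and 7.55% at a distance of 10 kb. These 4 changes follow from how each alternative was made. The share with an E-box was 15.5% within 50 bp of the summit, a window added after seeing the data, beside 55.4% over the whole promoter sequence. The median fold ranged from 9.71 to 10.8 over its alternatives, and with the stretches of chromosome 2 kept there were 366 broad peaks. Windows of 100 bp on each side of the summit were not run, as they needed a genome. No paired analysis was possible because there was 1 ChIP library and no test. Leaving out a replicate was not possible for the same reason. Depth limits the weakest broad peaks, where 12 reads at the summit have an exact interval from 6.2 to 21.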

Other observations

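Broad peaks also lay at genes that many cells express at high levels, which were picked after their values were seen. A peak of 815 bp at chr12:6533882-6534696, between GAPDH-DT and the glycolytic gene GAPDH, had 12-fold with 31 reads. Its summit was 37 bp from the body of GAPDH-DT and 820 bp upstream of the nearest listed start of GAPDH. Distances to starts that are not listed were not measured. PGK1 and EEF1A1, described above, are other such genes, and no count over a list of such genes was made. CALR, a chaperone of the endoplasmic reticulum, and STIP1, a co-chaperone of HSP90, had broad peaks of 13.5-fold and 12-fold with summits 114 and 130 bp upstream of their starts.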
